A study of Mus musculus with 2 samples.

Results

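Molecular chaperones and chaperonins were examined in testes of day 10 mice, in Mili-/- animals against Mili+/- animals. Members were the genes whose symbol belongs to the HSP90, HSP70, HSP110 or small heat shock families, the mitochondrial and cytosolic chaperonins, the J-domain, BAG and FK506-binding proteins, Stip1, or the endoplasmic reticulum (ER) lectins Calr and Canx. They were chosen by name, from probe sets annotated to exactly 1 gene symbol, and each gene was read by its brightest probe set. The choice gave 72 genes of the 8251 genes with a value, read by 103 probe sets. A RefSeq gene table lists 105 mouse coding genes with such names, and the other members of these families, such as Hsp90ab1 and Fkbp6, were not analysed here.

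The mutant lacks a functional copy of the gene for MILI, a Piwi protein of the male germ line that binds piRNAs, and its heterozygous counterpart served as the control. Both genotypes therefore carry at least 1 mutant allele, and no wild-type array was used here. Per the labels, germ cells of the mutant stop early in meiotic prophase, and day 10 was taken because it precedes the first cell death seen in these testes. For each genotype, polyadenylated RNA was measured on 1 single-colour array. How many mice stand behind an array, their strain and how the allele was made are details not stated in the labels, and every value is a single measurement. Whole testis was used, so fewer cells of a type and less RNA per cell cannot be told apart.

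Chaperones hold newly made or damaged proteins in a form that can fold. HSP70 binds exposed stretches of a polypeptide and releases them on an ATP cycle that J-domain proteins start and that BAG and HSP110 proteins reset by exchanging nucleotide. HSP90 acts later, on kinases and steroid receptors that HSP70 hands over through the adaptor STIP1, while the chaperonins enclose a protein in a ring. In the testis several members are largely germ cell proteins, and HSP90 helps to load small RNAs onto Argonaute and Piwi proteins.

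Promoter sequences of these genes were searched for the letters of stress response elements. They come from the RefSeq promoter table (build GRCm38.p6), which covers 250 bases before and 50 after each start site and held 64 of the 72 members. The ER stress element, searched as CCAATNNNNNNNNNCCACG on both strands, lay in promoters of 5 of the 64 members (7.81%), against 37 of 27025 genes in the table (0.137%). These members were Calr, Canx, Dnajc3, Hsp90b1 and Hspa5, all of them ER proteins. In the lines below capitals mark the element, each sequence runs 5′ to 3′ in the direction of its gene, and the coordinates are those of the printed window.
Hspa5, chr2:34772010-34772058, plus strand, element 65 bases upstream of the start site: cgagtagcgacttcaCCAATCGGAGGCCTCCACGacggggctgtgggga
Dnajc3, chr14:118937812-118937860, plus strand, 105 bases upstream: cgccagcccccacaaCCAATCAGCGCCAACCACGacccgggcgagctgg
Canx, chr11:50325785-50325833, minus strand, 145 bases upstream: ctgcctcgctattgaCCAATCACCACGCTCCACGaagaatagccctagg
Hsp90b1, chr10:86705623-86705671, minus strand, 212 bases upstream: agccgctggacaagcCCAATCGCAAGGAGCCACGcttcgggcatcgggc
Hsp90b1, chr10:86705518-86705566, minus strand, element on the opposite strand, 107 bases upstream: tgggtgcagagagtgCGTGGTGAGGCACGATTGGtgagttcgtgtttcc
Calr, chr8:84847060-84847108, minus strand, element on the opposite strand, 162 bases upstream: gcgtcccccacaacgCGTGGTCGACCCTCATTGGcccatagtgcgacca

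The heat shock element of 3 units, searched as GAANNTTCNNGAA or TTCNNGAANNTTC, lay in promoters of 4 of the 64 members (6.25%), against 0.662% of all genes in the table. They were Hspd1, Hspe1, Dnajb6 and Hsph1, and in Hsph1 the match lay 15 or 36 bases downstream of its start sites. The Hspd1 and Hspe1 promoters are the same stretch of chromosome 1 read on opposite strands and share 285 bases, so their elements are 1 and the same. There, overlapping matches to the element join to an unbroken run of 18 bases, in capitals here.
Hspe1, chr1:55088044-55088091, plus strand, 89 bases upstream of the start site: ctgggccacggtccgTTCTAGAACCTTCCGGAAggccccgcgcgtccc
Dnajb6, chr5:29735837-29735879, plus strand, 46 or 127 bases upstream of its start sites: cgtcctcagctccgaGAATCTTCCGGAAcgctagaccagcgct
The shorter pair of units GAANNTTC, which every 3-unit element contains, lay in 12 of the 64 members (18.8%) and in 9.04% of all genes, and the CCAAT box, which opens every ER stress element, in 34 (53.1%) and 41.1%. A match describes letters in a window and is not a measured binding site.

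Signals below the 20th percentile of an array were set to that percentile. Values were then log2-transformed with the array's median subtracted, and every difference is Mili-/- minus Mili+/-. Of the 72 members, 65 were past the brightness filter, which asked that the brighter array reach its own median signal of 41.6 in Mili-/- or 38.5 in Mili+/-. Dnajb13 passed through the Mili+/- array alone and Cct6b through the Mili-/- array alone. The filter left out 7 members. Just outside it lay Dnajc11 (16.2 in Mili-/- and 30.8 in Mili+/-) and Fkbp11 (19.2 and 29.8), and just inside it Cct6b (42.1 and 35.7) and Dnajb4 (44.3 and 43.4). The RNA integrity controls were alike on both arrays, with a 3' to 5' ratio of 1.52 in Mili-/- and 1.53 in Mili+/- for Actb.

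The chaperone genes, like most genes, differed little between the arrays. None of the 65 was 2-fold higher or lower in Mili-/-, where 0.314% of the 5095 genes past the filter were 2-fold higher and 0.53% as much lower. With shares this low, a count of 0 among 65 genes does not set the members apart. At 1.5-fold, 1 member was lower (5.04% of all genes) and none was higher (2.47%). All 65 lay inside the central 95% range of all genes, between -0.69 and 0.58, and the SD of their differences was 0.23 against 0.32 for all genes. Members were on balance slightly lower than other genes, with a median of -0.22 against -0.13 over all genes past the filter. Of the 65, 43 (66.2%) lay under that all-gene median, and 51 (78.5%) lay below 0, against 68.9% of all genes. Centring lowered every difference by 0.11, the log2 gap between the array medians over all probe sets. Brighter signals did not share that gap. At the 75th percentile of signal it was -0.027 as deposited, and the median of all genes past the filter was -0.016 without centring. The count of members below 0 was 43 as deposited, 47 after quantile normalization and 46 after loess. The gap of the members' median to that of all genes was -0.09 as centred or as deposited, and -0.10 after quantile normalization or loess. Over all 72 measured members the median was -0.21, against -0.06 over all 8251 genes.

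**Figure D1:**
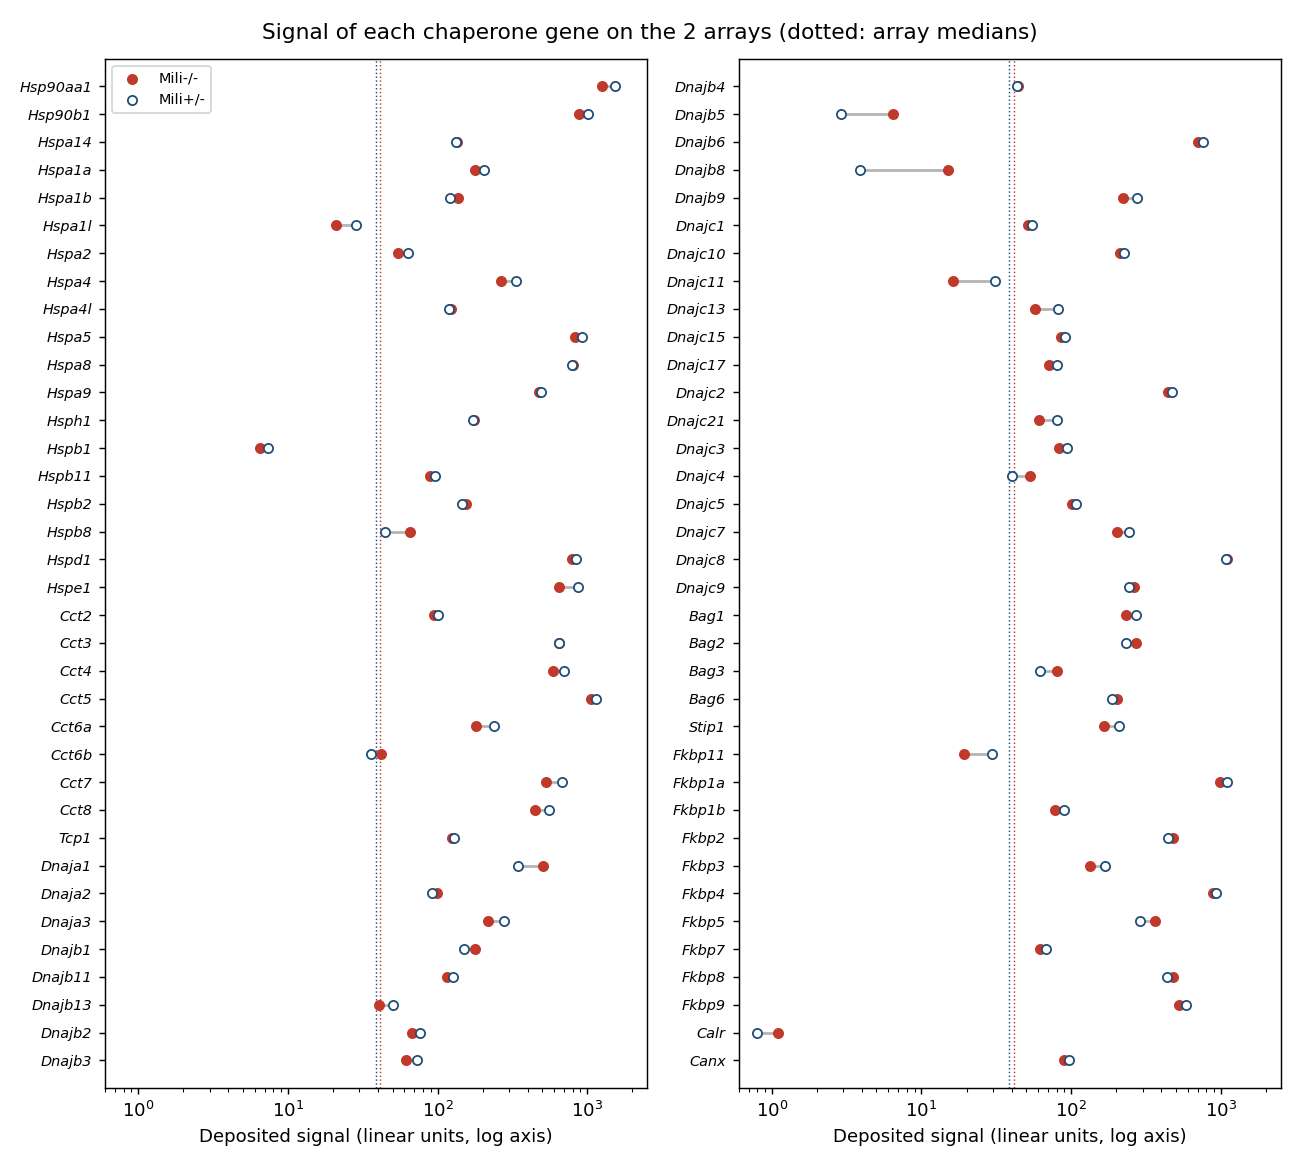
Deposited signal of each of the 72 chaperone genes (horizontal, linear units on a log axis) in Mili-/- (filled) and Mili+/- (open) testes, with 1 array per genotype and the array medians dotted. Most pairs nearly coincide, as for Cct3 at 650 on both arrays, and the widest gaps belong to dim genes such as Dnajb8.

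**Figure D2:**
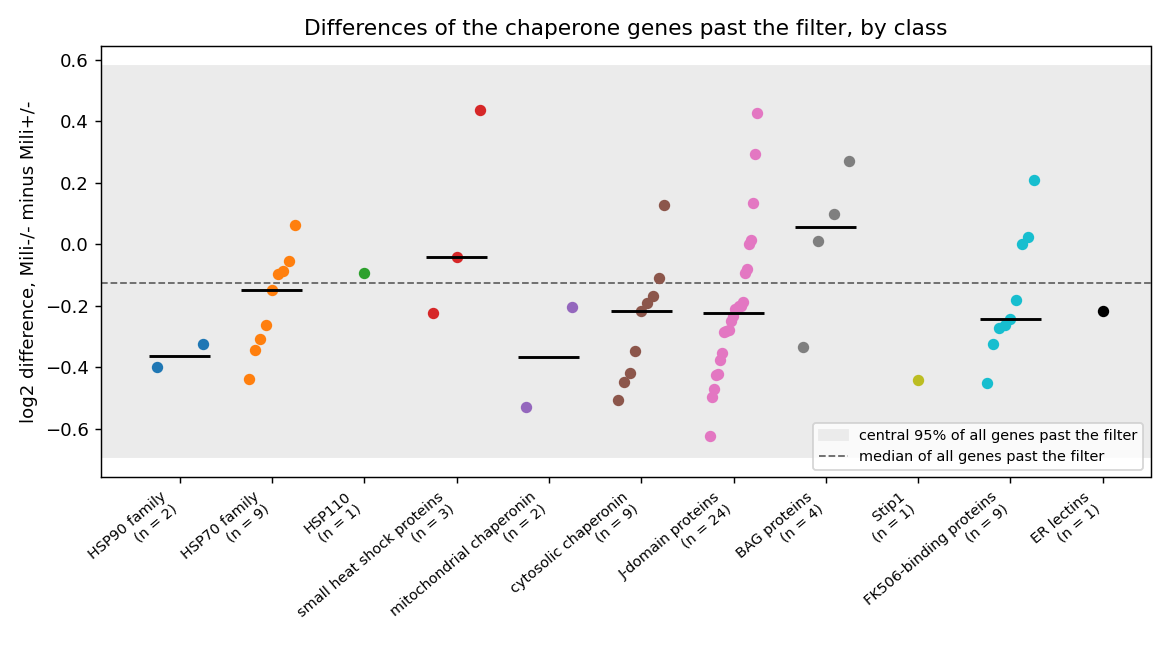
Log2 difference (Mili-/- minus Mili+/-) of the 65 chaperone genes past the filter by class, with class medians as bars where a class has more than 1 gene. Every point lies in the grey central 95% range of all genes past the filter. The HSP90, chaperonin, J-domain and FK506-binding medians lie under the dashed all-gene median of -0.13, and the HSP70 median (-0.15) just under it.

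The disagreement between probe sets of 1 gene is the only error that these arrays allow. Its SD was 0.31 over 720 genes, and 0.22 over the 11 chaperone genes for which several probe sets passed. Of the 65 members, 13 (8 below and 5 above) stood farther than 0.31 from the all-gene median, where 25.6% of all genes did. Neither SD covers differences between animals or hybridisations. Probe sets went to both sides of 0 for 4 of the 11 genes, Hspa4, Bag6, Dnajb9 and Dnajb6. For the other 7 they shared a side as centred. Cct3, Cct5, Dnajc2, Dnajc3, Dnajc8 and Fkbp4 were below 0 in every probe set past the filter, while Bag2 was above 0. For 3 of these genes the side rested on the centring. As deposited, both Dnajc8 probe sets were higher in Mili-/- (1095.5 against 1084 in Mili+/-, and 504.2 against 479.9). So was 1 probe set of Fkbp4 (365.6 against 345.2), and the brightest of Cct3 was level (649.8 and 649.6).

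**Figure D3:**
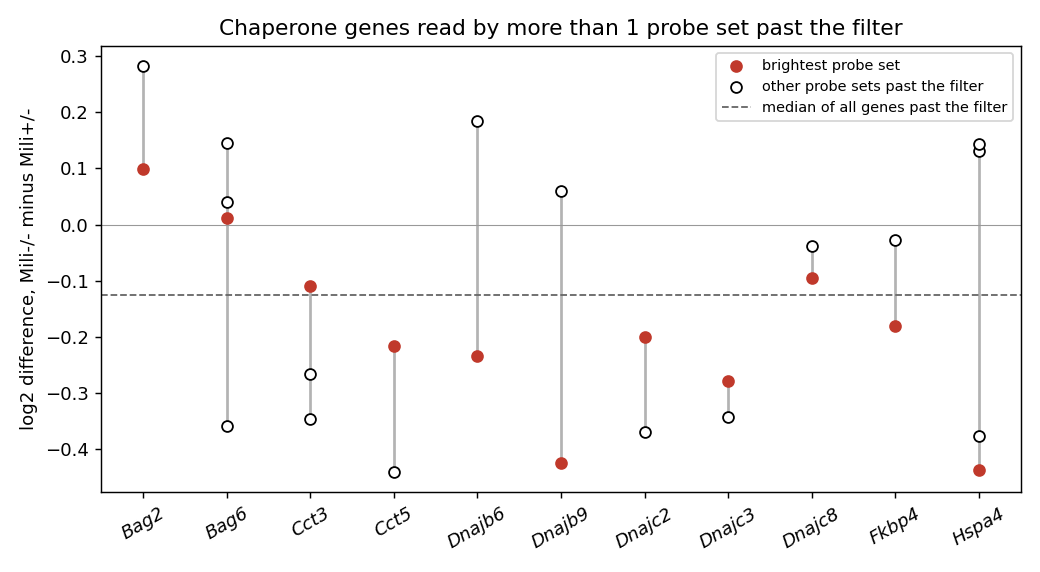
Log2 difference (Mili-/- minus Mili+/-) of each probe set past the filter for the 11 chaperone genes that have more than 1, with the brightest filled. The widest spread is that of Hspa4, between -0.44 and 0.14, and the narrowest that of Dnajc8, between -0.09 and -0.04.

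Both HSP90 genes with a value were lower in Mili-/-. Hsp90aa1, the stress-inducible cytosolic HSP90 without which male mice arrest in meiosis, was read at 1254 in Mili-/- and 1534 in Mili+/-, a difference of -0.40. Hsp90b1, which encodes the ER form GRP94 and carries 2 ER stress elements, had 875.5 and 1015 (-0.32). Stip1, the adaptor that joins HSP70 to HSP90, had 166 in Mili-/- and 209 in Mili+/- (-0.44). A pair of immunophilins that sit on HSP90 with steroid receptors went apart. Fkbp5 was at 362 in Mili-/- and 290 in Mili+/- (0.21), and Fkbp4 at 883 and 927 (-0.18).

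HSP70 genes were mostly near the median of all genes, with a median of -0.15 over 9 genes past the filter and 5 of 9 under the all-gene median. The constitutive Hspa8 was at 805 in Mili-/- and 793 in Mili+/- (-0.09). Hspa9, the mitochondrial HSP70, was at 476 and 489 (-0.15), and Hspa5, the ER form BiP, at 832 and 925 (-0.26). Hspa14, a ribosome-associated form, stood at -0.10. The near-identical stress-inducible genes Hspa1a and Hspa1b, whose transcripts an array may not separate, stood at -0.31 (177 in Mili-/- and 203 in Mili+/-) and 0.06 (137 and 122).

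For Hspa4, an HSP110-like exchange factor of HSP70, the probe sets disagreed. Its brightest probe set had 266 in Mili-/- and 333 in Mili+/- (-0.44), and another stood at -0.38, but the remaining ones past the filter stood at 0.14 and 0.13. Its relative Hspa4l stood at -0.05 and Hsph1, the classical HSP110, at 176 in Mili-/- and 174 in Mili+/- (-0.09).

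The BAG proteins, which release substrate from HSP70, had a median of 0.06 over 4 genes. It changed side with the mean over probe sets (-0.089) and without suffix-marked probe sets (-0.12). Bag3, a partner of small heat shock proteins in selective autophagy, had 80.8 in Mili-/- and 62.0 in Mili+/- (0.27), though a dimmer probe set of Bag3, below the filter, stood at -0.55. Bag2 was at 269 and 233 (0.10), with a further probe set at 0.28. Bag6, which guards tail-anchored membrane proteins, stood at 0.01 with other probe sets between -0.36 and 0.14, and Bag1 at 231 in Mili-/- and 270 in Mili+/- (-0.33).

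Small heat shock proteins, which bind unfolding proteins without ATP, had few readable members. Hspb8, the partner of BAG3, was at 65.5 in Mili-/- and 44.8 in Mili+/- (0.44, 1.35-fold). Averaged with a second, dim probe set, its difference was 0.24. Hspb2 stood at -0.04. Hspb11 stood at -0.22 and is a small heat shock protein by name only, since it encodes the intraflagellar transport protein IFT25. Hspb1 was near the floor on both arrays (6.5 in Mili-/- and 7.4 in Mili+/-).

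The cytosolic chaperonin TRiC folds actin and tubulin inside a ring of paralogous subunits, each with a gene of its own. The median over its 9 genes was -0.22. Of the 9, 8 were below 0, against 68.9% of all genes past the filter, and 7 lay under the all-gene median. As deposited, 7 of the 9 were below 0. The only gene above 0 as centred was the testis paralogue Cct6b, and the other 8 lay between -0.51 and -0.11 with a median of -0.28. Cct7 had 533 in Mili-/- and 673 in Mili+/- (-0.45). Cct8 had 449 and 555 (-0.42), and Cct4 had 588 and 693 (-0.35). A second tier lay nearer to the all-gene median, with Cct5 at 1054 and 1135 (-0.22), Cct2 at -0.19 and Tcp1 at -0.17. For Cct3 the brightest probe set, whose suffix marks shared sequence, was at 650 on both arrays (-0.11), and its other probe sets stood at -0.35 and -0.27. As deposited, and so without the 0.11 that centring subtracted, that probe set of Cct3 stood at 0.00. Cct6a had the largest gap, 179.5 in Mili-/- and 236 in Mili+/- (-0.51), in a probe set marked for shared sequence, and its only other probe set was dim. Cct6b, which stands in for Cct6a in testis, went the other way on dim signals of 42.1 in Mili-/- and 35.7 in Mili+/- (0.13).

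The mitochondrial chaperonin consists of HSP60 and its lid HSP10, and their genes are the pair with the shared promoter printed above. Hspe1, for HSP10, had 651 in Mili-/- and 871 in Mili+/-, a difference of -0.53 (1.44-fold lower) and the lowest among members at or above the 95th percentile of signal. Hspd1, for HSP60, had 787 and 841 (-0.21). Both were lower in Mili-/-, by unequal amounts. Dnaja3, the J-domain partner of mitochondrial HSP70, had 217 in Mili-/- and 279 in Mili+/- (-0.47).

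J-domain proteins made up the largest class, with 27 genes measured and 24 past the filter, a median of -0.22 and 17 of 24 under the all-gene median. Dnaja1, a main partner of cytosolic HSP70 that mouse Sertoli cells need to support spermatogenesis, was among the members with a higher signal in Mili-/-. It had 502.5 in Mili-/- and 347 in Mili+/- (0.43, 1.34-fold). It reached the 95th percentile of signal in Mili-/- alone, which favours a difference above 0. Of the 17 members at or above that percentile on either array, 16 were below 0 as centred, against 66.6% of the 524 genes there. As deposited, Hspa8 (0.022), Dnajc8 (0.015) and Cct3 (0.0004) were not below 0 either. Above the all-gene median lay 4 of the 17, and 326 of the 524 genes. Among these members Cct8 reached it in Mili+/- alone, which favours a difference below 0. Dnaja2, a close relative of Dnaja1, stood at 0.02. The stress-inducible Dnajb1 was at 177 in Mili-/- and 149.5 in Mili+/- (0.13).

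At the other end stood Dnajc13, which acts in endosomal sorting, with 57.2 in Mili-/- and 81.6 in Mili+/-. Its difference of -0.62 (1.54-fold lower) was the only one past 1.5-fold, and it was short of that as deposited (-0.51), after quantile normalization (-0.52) and after loess (-0.53). Dnajc21, a factor of ribosome assembly, had 61.2 and 80.0 (-0.50). Dnajc7, which passes clients between HSP70 and HSP90, had 204 and 245 (-0.38). Dnajb6, a suppressor of aggregation, had 698 and 761 in its brightest probe set (-0.23), and a second stood at 0.18. Dnajb2, Dnajc5, Dnajc15 and Dnajc17 lay between -0.29 and -0.21, and Dnajb4 at -0.08. Dnajc8, a splicing-associated protein, was at 1095.5 in Mili-/- and 1084 in Mili+/- (-0.09), Dnajc9, a histone chaperone, at 263 and 243 (0.00), and Dnajc2, which works at the ribosome exit, at -0.20. Dnajc4 stood at 0.29 on signals of 53.0 in Mili-/- and 40.1 in Mili+/-.

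FK506-binding proteins, which turn proline bonds, had a median of -0.24 over 9 genes. Fkbp3, a nuclear form, had 134 in Mili-/- and 169 in Mili+/- (-0.45). Fkbp1a, the small FKBP12 that binds calcium channels and TGF-beta receptors, was at 988.5 and 1106 (-0.27), and its paralogue Fkbp1b at -0.32. Fkbp8, which sits on the mitochondrial outer membrane, was at 481 and 439 (0.02).

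Members of the ER past the filter, listed across the classes, lay close together in their brightest probe sets. The 11 past the filter lay between -0.42 and 0.00 with a median of -0.25, and 10 of 11 lay under the all-gene median, against 33 of the 54 other members. The 4 of them with an ER stress element and a readable signal, Hsp90b1, Dnajc3, Hspa5 and Canx, lay between -0.32 and -0.22. Dnajc3, an inhibitor of the stress kinase PERK, had 83.1 in Mili-/- and 93.4 in Mili+/- (-0.28), with a second probe set at -0.34. Canx, the lectin calnexin, had 90.0 and 96.9 (-0.22). Dnajb9, an ER J-domain protein without the element in this window, had 221 and 275 (-0.42), but a second probe set at 0.06. Fkbp9 had 523 and 582 (-0.26). Dnajb11 stood at -0.25, Fkbp7 at -0.24, Dnajc1 at -0.20 and Dnajc10 at -0.19. Fkbp2 was at 476 in Mili-/- and 440.5 in Mili+/- (0.00). Fkbp11, dim and under the filter, stood at -0.74. ER folding genes outside the members lay farther apart, with Pdia3 at -0.62 and Clgn at 0.48. Calr, the partner lectin, was read by a single probe set that was near 0 on both arrays (1.1 in Mili-/- and 0.8 in Mili+/-), so these arrays give no usable level for it.

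Of the members induced by the heat shock factor HSF1, 11 of 12 were past the filter, with a median of -0.18 and 6 of 11 under the all-gene median. They lay on both sides of it. Hspe1 (-0.53), Stip1 (-0.44) and Hsp90aa1 (-0.40) were at the low end, and Bag3 (0.27) and Dnajb1 (0.13) at the high end. The 4 members with a heat shock element, among them Dnajb6, which is not on this list, lay between -0.53 and -0.09. Hspa1a, Hspa1b and Dnajb1, which are on it, had no match to the element in the window searched.

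Of the members listed for a role in germ cells, 7 had a value and 6 were past the filter, with a median of -0.35 and 4 of 6 under the all-gene median. When all probe sets of each gene were averaged, dim ones included, the median was -0.081. The list takes in Hsp90aa1, described above, which is not confined to germ cells, and does not hold Dnajb8. Hspa2, an HSP70 that mouse spermatocytes need to finish meiotic prophase, had 54.4 in Mili-/- and 63.9 in Mili+/- (-0.34). Dnajb13, a protein of the sperm axoneme, had 40.4 and 50.1 (-0.42), and Dnajb3, made in spermatids, 61.4 and 72.6 (-0.35). Which cells of these day 10 testes gave the signals of Dnajb13 and Dnajb3 was not tested. Both genes have a second, dim probe set above 0, at 0.36 for Dnajb13 and 0.13 for Dnajb3. Hspa1l, a spermatid HSP70 gene, was under the filter at 20.8 in Mili-/- and 28.7 in Mili+/-. Hspa4l (-0.05) and Cct6b (0.13) did not share the low values. Dnajb13 passed the filter only in Mili+/- and Cct6b only in Mili-/-, which favours the directions seen for both.

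Markers of several cell types also differed between the arrays. Of 21 listed spermatogonial markers 15 were measured, none at 0, with a summed signal of 3520 in Mili-/- and 4184 in Mili+/-, and 9 of the 10 past the filter lay under the all-gene median. For early meiosis, 6 of 15 were measured, with sums of 451 and 554.5, and all 3 past the filter lay under that median, while Dmc1, Msh5 and Sycp3 were dim. The 14 markers of pachytene cells and spermatids summed to 372.5 in Mili-/- and 299 in Mili+/-, but most were dim and only 5 were past the filter. Of these 5, with a median of 0.19, 3 lay above the all-gene median and 2 under it. Of 18 Sertoli cell markers 16 were measured, with sums of 8075 in Mili-/- and 7082 in Mili+/-, and 12 of 16 lay above the all-gene median. Leydig cell markers summed to 693 in Mili-/- and 774 in Mili+/- over 5 of 6 listed genes, with 3 of the 4 past the filter under the all-gene median, and macrophage markers to 789 and 702 over 9 genes, with 5 of 8 above it. Adipose markers summed to 653 in Mili-/- and 363 in Mili+/- over 8 of 10 listed genes, and erythroid markers to 2093 and 1551 over 7 of 9. The part of these cell types in the chaperone differences was not tested.

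The members' median lay under that of all genes in each band of brightness compared. Among genes at or above the 75th percentile of signal the median was -0.21 over 40 members and -0.13 over 2786 genes. At or above the 95th percentile it was -0.26 over 17 members and -0.07 over 524 genes. Between the median and the 75th percentile it was -0.22 over 25 members and -0.12 over 2309 genes. These are positions on 2 arrays and carry no test.

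**Figure D4:**
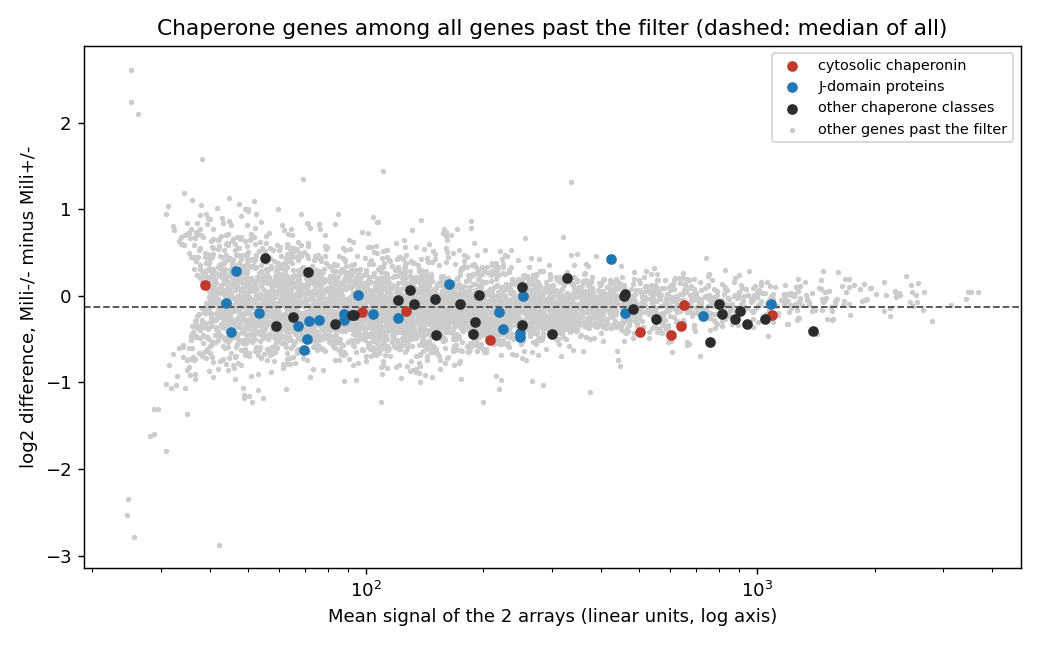
Log2 difference (Mili-/- minus Mili+/-, vertical) against mean signal (horizontal, log axis) for the 65 chaperone genes and all other genes past the filter (grey). The cytosolic chaperonin and the J-domain proteins have colours of their own, and all other chaperone classes share a dark one. The all-gene median of -0.13 is dashed. Most chaperone genes lie just under the dashed line, with Dnaja1 at 0.43 and Hspb8 at 0.44 above it.

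Other genes of protein folding and quality control lay closer to the all-gene median. Of 68 such genes listed, 54 had a value and 42 were past the filter, with a median of -0.15 and 22 of 42 under the all-gene median. Their range was wider than that of the chaperones. The lowest were Eif2ak3, which encodes the ER stress kinase PERK (24.1 in Mili-/- and 38.8 in Mili+/-, -0.80), the histone chaperone gene Nasp (106 and 168, -0.77), the mitochondrial protease gene Lonp1 (103 and 149, -0.64) and the ER disulfide isomerase gene Pdia3 (280 and 399, -0.62). The highest were Cryab, for the small heat shock protein alpha-B crystallin (49.0 in Mili-/- and 26.6 in Mili+/-, 0.77), the ER stress factor gene Ddit3 (44.8 and 26.1, 0.67), the testis ER chaperone gene Clgn (58.1 and 38.7, 0.48) and Pdia5 (143 and 109, 0.28). Eif2ak3 reached the median signal only in Mili+/-, and Cryab and Ddit3 only in Mili-/-, which favours the directions seen. None of the 42 was 2-fold different.

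Under the filter, 2 members were past 2-fold on dim signals. Dnajb8, a J-domain protein of the testis that suppresses aggregation, was at 15 in Mili-/- and 3.9 in Mili+/-, where it lay under the floor, for a difference of 1.14 with the floor in place. Dnajc11, a protein of the mitochondrial inner membrane organising complex, had 16.2 and 30.8 (-1.04). Dnajb5, at 6.5 in Mili-/- and 2.9 in Mili+/-, was under the floor of 7.0 on one array and 6.3 on the other, and has no usable level. A probe set assigned to both Dnajc19 and its pseudogene, and so outside the members, had 114 in Mili-/- and 154 in Mili+/- (-0.55).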

How the data were processed

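The authors deposited a linear signal intensity for every probe set on each array. Judged by the values, both arrays were scaled to a common level. How probes were summarised and background was handled is not given in the sources used here. Of 12422 non-control probe sets (66 controls were left out), 10833 had 1 gene symbol, 396 several and 1193 none in the platform annotation, and symbols were updated by Entrez ID in a RefSeq table (GRCm38.p6) for 10817.

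Signals were floored, log2-transformed and centred as described, with floors of 7.0 in Mili-/- and 6.3 in Mili+/-. With 1 array per genotype no test was possible, and the number of arrays limits the precision. Described genes were the 5 highest and 5 lowest members past the filter, members at or above the 95th percentile of signal, and the 4 highest and 4 lowest other folding genes. Any further member was named within its class. The members, classes, marker lists and folding genes were chosen with earlier results of these data known.

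Alternatives were no centring, quantile normalization, loess (span 0.4), no floor or one at the 40th percentile, no filter, a filter at the 75th percentile or on both arrays, the mean over probe sets, no suffix-marked probe sets, and folds of 1.5 and 3. The code was tested on simulated data. Python 3.11.15, NumPy 2.4.6, pandas 2.3.3, statsmodels 0.14.6 and matplotlib 3.10.9 were used.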

Additional observations from a re-analysis of the deposited data

How the results depend on the processing

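No paired analysis was possible because each genotype had 1 array. A shift was counted when a gene moved by over 0.31, the SD between probe sets, or a median by over the error that this SD gives it. For the counts of members past the fold, each 0 in the main setting, any change was counted. The members' median of -0.22 was -0.11 as deposited, after quantile normalization and after loess, while the all-gene median (-0.13) was -0.016, -0.0074 and -0.0082. For J-domain proteins (-0.22) it was -0.11, -0.13 and -0.12 under these settings, and for the other folding genes (-0.15) it was -0.040, -0.00074 and -0.010. Without the filter the other folding genes stood at -0.052, and 1 member was 2-fold higher and 1 lower (Dnajb8 and Dnajc11). With the threshold at 1.5-fold 1 member was lower. With that filter raised to the 75th percentile, the cytosolic chaperonin stood at -0.38 (-0.22 before), since fewer genes remained. With the mean over probe sets the germ cell members stood at -0.081 (-0.35 before), a mean that takes in dim probe sets, and Bag3 at -0.14, Cct6a at -0.12 and Dnajb13 at -0.03. Without suffix-marked probe sets Bag6 stood at -0.36. The other 139 counts, class and list values and 613 gene values were not counted as shifts, though some medians near 0 changed side. Many of the 613 could not move. A change of filter leaves a gene's difference as it is, and neither change of floor altered the value of a member past the filter. Leaving out the centring adds the same 0.11 to every gene, which is less than 0.31. For small heat shock proteins (-0.04) the median was 0.07 as deposited and 0.10 or 0.11 under quantile normalization, loess and the omission of suffix-marked probe sets, and 0.08 with the mean over probe sets. Over all genes, 16 were 2-fold higher and 27 lower, against 30 and 17 as deposited, 24 each with quantile normalization, and 25 and 23 with loess.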
